A study of Mus musculus with 6 samples.

Results

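The mammary hormone response was followed on 6 arrays through 9 genes: the receptors Esr1, Pgr and Prlr, the luminal transcription partners Foxa1, Gata3 and Cited1, and the hormone targets Greb1, Wnt4 and Tnfsf11. They were taken by name, not by their values, through the RefSeq accessions of the array's probes. All 9 members were measured, by 15 probes, among 23458 genes tested in all. The RNA came from 6 female mice at 8 weeks of age, every one of them a Trp53 knockout, so the controls lack p53 too and no wild-type mouse is part of the comparison. Diets began at 3 weeks of age and lasted 5 weeks, with 3 mice on a high-fat diet and 3 on a control diet, assigned at random. Each mouse has 1 single-colour (Cy3) array. The labels give mammary glands as the tissue, but the sample descriptions speak of mammary epithelial cells, and they give no oestrous stage, on which hormone-driven transcripts of the gland depend.

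Ovarian hormones act on the mammary duct through a minority of luminal cells that carry the receptors. Oestrogen binds ESR1, the oestrogen receptor, which works at chromatin opened by FOXA1 and together with GATA3, and which switches on PGR, the progesterone receptor, and GREB1, a cofactor of the receptor itself. Progesterone then makes these cells secrete WNT4 and TNFSF11 (RANKL), paracrine signals that set neighbouring stem and progenitor cells dividing, while PRLR, the prolactin receptor, signals through JAK2 and STAT5 toward alveolar development. CITED1 is a transcriptional cofactor of ESR1 found in the receptor-bearing cells. In puberty the same system drives the growth of the ducts into the fat pad.

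Each level is given as log2 of a probe's processed signal divided by its array's 75th percentile, so 0 stands for the signal at that percentile. A positive difference means a higher mean in the 3 high-fat mice than in the 3 control mice. The number of arrays limits the precision. That percentile lay between 1326 and 1973 intensity units, between 27202 and 29409 of the 39429 probes were well above background on an array, and no probe was saturated. Among 11 general epithelial markers all were well above background on every array, led by the luminal keratins Krt18, Krt8 and Krt7. The 8 adipocyte markers were mixed: Pnpla2 and Fabp4, which other cells express too, had diet means of 1.31 to 2.16. Lipe stood at -5.09 and -4.80 and Retn at -4.94 and -5.57 (high-fat and control means). Adipoq, Lep, Plin1 and Cidec lay at -6.99 to -5.66, where the dimmest detected signal of an array lay at -7.87 to -6.83. Those 4 dim genes were still flagged well above background on 5 or 6 arrays. The milk caseins Csn2 and Csn3 did not exceed background on any array by the scanner's flag. Over all genes, the first principal component (46.7% of the variance) put high-fat replicates 1 and 2 at -56.0 and -50.1 and control replicates 2 and 3 at 48.8 and 49.4, with high-fat replicate 3 (7.35) and control replicate 1 (0.57) between.

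Of the 9 members, 7 had a higher mean after the high-fat diet and 2 a lower one, with a median difference of 0.60, beside a median of -0.01 over all genes. That median is the value of Pgr, and it ran from 0.20 without control replicate 2 to 0.89 without control replicate 1, with 0.28 without high-fat replicate 1. It was 0.04 relative to the general epithelium list and 0.01 with slide as a block. In 3 members, Greb1, Wnt4 and Esr1, every high-fat array lay above every control array, where 8.47% of all genes did so. The same 3 had an unadjusted p under 0.05, where 5.88% of all genes were higher at that threshold. None of the 9 passed in limma with Benjamini-Hochberg adjustment over all genes (adjusted p from 0.242 for Esr1 to 0.874 for Cited1), and over all genes 4 passed, or 0.0171%. In these bulk samples fewer cells of a type and less RNA per cell cannot be told apart.

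**Figure D1:**
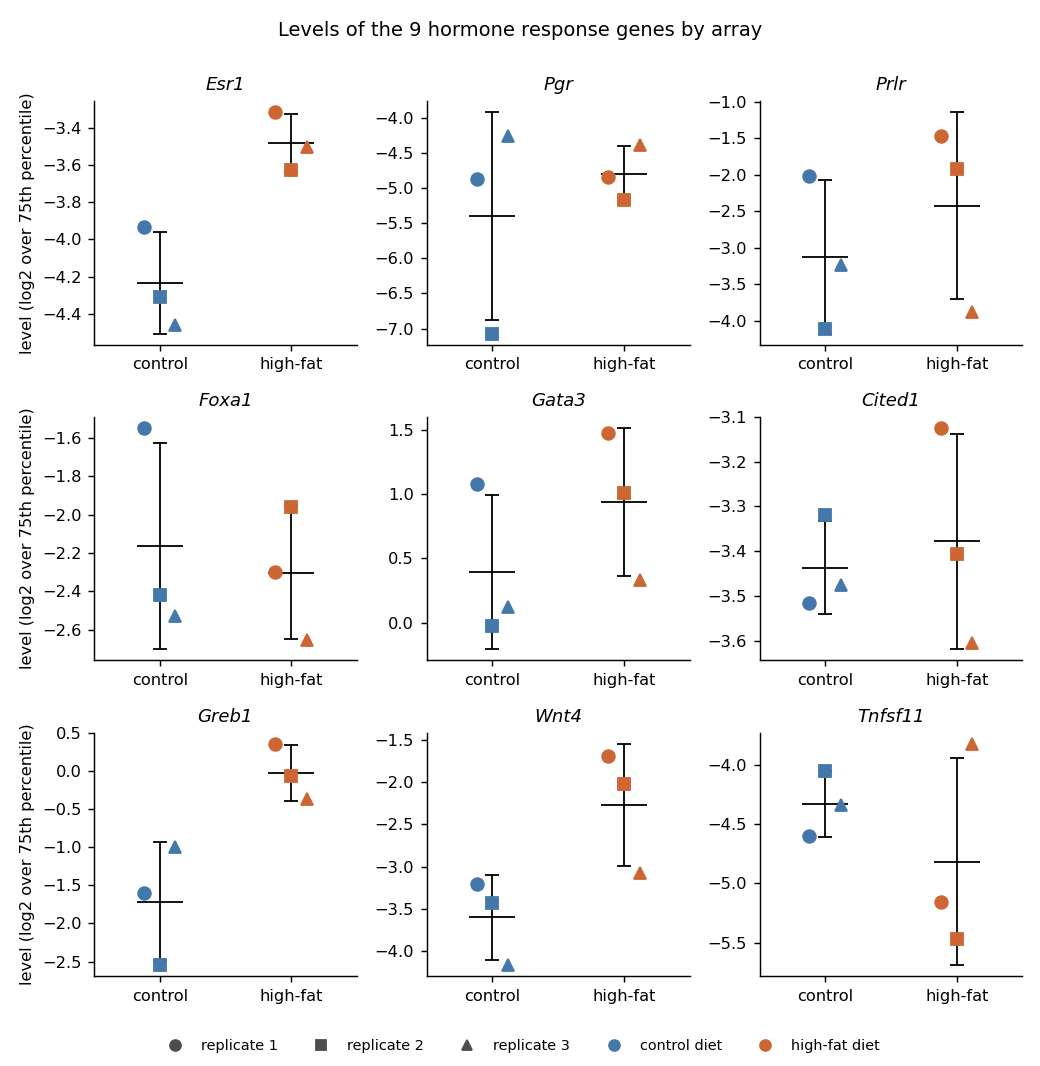
Levels of the 9 members on each array (y axis, log2 signal over the array's 75th percentile, with an axis of its own for each gene), by diet. Points are mice, with a symbol for each replicate number, and bars show the mean and SD of n = 3. Esr1, Greb1 and Wnt4 show no overlap between the diets; the other 6 genes do overlap.

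Esr1, the receptor that starts the cascade, had the tightest replicates of the 3 genes without overlap. On its brightest probe (A_52_P237077, NM_007956) the level was -3.31, -3.63 and -3.50 on high-fat replicates 1 to 3 and -3.93, -4.31 and -4.46 on control replicates 1 to 3. Its means were -3.48 ± 0.16 and -4.23 ± 0.27 (SD, n = 3 each), a 1.69-fold difference (log2 0.75, SE 0.18, limma adjusted p = 0.242), and the exact two-sided permutation test gave p = 0.1, the smallest that 3 arrays against 3 allow. A dimmer Esr1 probe (A_55_P2030883) read -4.93, -5.07 and -5.86 under high-fat and -5.35, -5.71 and -6.05 under control diet. There high-fat replicate 3 lay among the controls, and the difference was 0.41 (SE 0.30, limma adjusted p = 0.525). The remaining Esr1 probe (A_51_P474658) was flagged well above background on 0 of 6 arrays.

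Pgr, which oestrogen induces, did not follow Esr1 array by array. On its brighter probe (A_55_P2095663, NM_008829) the high-fat levels of -4.84, -5.17 and -4.38 lay inside the control range, whose values were -4.87, -7.07 and -4.25. On this probe the highest Pgr level was thus on control replicate 3, the array with the lowest Esr1. Control replicate 2 was the outlying array, and on it neither Pgr probe was well above background. The difference of 0.60 (SE 0.71, limma adjusted p = 0.700) was -0.24 without control replicate 2 and 1.17 without control replicate 3. The dimmer probe (A_51_P213476), well above background on 4 of 6 arrays, gave 0.70 (SE 0.49, limma adjusted p = 0.515). On that probe high-fat replicates 3 and 1 were the highest arrays, and control replicate 3 had rank 4.

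Prlr, the receptor for prolactin, varied more within a diet than between the diets. Its brighter probe (A_66_P139387, NM_011169) read -1.47, -1.92 and -3.88 on the high-fat arrays and -2.02, -4.11 and -3.23 on the controls. High-fat replicates 1 and 2 and control replicate 1 formed the upper values, and high-fat replicate 3 stood with the other controls. The difference was 0.70 (SE 0.77, limma adjusted p = 0.678), and ranged from 0.20 (control replicate 2 left out) to 1.42 (high-fat replicate 3 left out). A second Prlr probe (A_52_P458279) spanned only -4.16 to -3.77 over all 6 arrays, with a difference of 0.04 (SE 0.15). Prlr has several transcript forms, and which of them each probe reads is not given in the sources used here.

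Among the luminal partners, Gata3, a zinc finger factor that maintains the luminal fate, came closest to separating the diets. It read 1.48, 1.01 and 0.33 (high-fat) against 1.08, -0.02 and 0.12 (control; probe A_66_P111011, NM_008091). Control replicate 1 stood between high-fat replicates 1 and 2, and the difference was 0.55 (SE 0.40, limma adjusted p = 0.538). Foxa1, the forkhead factor that opens chromatin for ESR1, read -2.30, -1.96 and -2.65 under high-fat and -1.55, -2.42 and -2.53 under control diet (probe A_55_P2053933, NM_008259). Its highest array was control replicate 1 and its lowest high-fat replicate 3. Foxa1 differed by -0.14 (95% interval -0.89 to 0.62, limma adjusted p = 0.844). Cited1 was the most even member, between -3.61 and -3.12 over the 6 arrays (probe A_55_P1979833, NM_007709), and its difference of 0.06 had a 95% interval of -0.33 to 0.44 (limma adjusted p = 0.874). For Foxa1 and Cited1 these intervals leave room for changes of such size in either direction.

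Greb1, an early and direct target of the oestrogen receptor, showed the largest difference of the 9. Its brighter probe (A_55_P2114779, NM_015764) read 0.36, -0.07 and -0.37 under the high-fat and -1.61, -2.55 and -0.99 under the control diet. All 3 high-fat mice lay above all 3 controls, with means of -0.03 ± 0.37 and -1.72 ± 0.78 (SD, n = 3 each). This is a 3.22-fold difference (log2 1.69, SE 0.41, limma adjusted p = 0.251, exact permutation p = 0.1). The other Greb1 probe (A_55_P2114776) ordered the 6 arrays identically, with -0.51, -0.69 and -0.97 against -1.71, -1.93 and -1.37. It gave a smaller and tighter difference of 0.94 (SE 0.20, limma adjusted p = 0.217). Leaving out 1 array at a time kept the difference of the brighter probe between 1.27 and 2.05.

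Wnt4, the secreted factor through which progesterone acts on neighbouring cells, had 2.53-fold higher signal. On the brighter probe (A_66_P139703, NM_009523) the levels were -1.69, -2.03 and -3.08 under high-fat and -3.20, -3.44 and -4.17 under control diet. High-fat replicate 3 lay just above the highest control, so the diets were narrowly apart. The means were -2.27 ± 0.72 and -3.60 ± 0.51 (SD, n = 3 each), and the difference was 1.34 (SE 0.42, limma adjusted p = 0.318, exact permutation p = 0.1). The dimmer Wnt4 probe (A_51_P130475) read -4.30, -4.41 and -5.27 against -5.72, -5.71 and -6.69, again without overlap and with a difference of 1.38 (SE 0.37, limma adjusted p = 0.271). It was flagged well above background on 6 arrays, but its control signals were only 34.8, 25.3 and 13.4 intensity units. Of the 14 member probes tested, 5 were higher without overlap, where 9.25% of all probes were, and these 5 read Esr1, Greb1 and Wnt4.

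Tnfsf11, the RANK ligand and the other paracrine signal downstream of progesterone, went the opposite way on average. It read -5.16, -5.47 and -3.82 on the high-fat arrays and -4.60, -4.04 and -4.34 on the controls (probe A_55_P2039359, NM_011613). High-fat replicates 1 and 2, which had the highest Wnt4, had the lowest Tnfsf11, while high-fat replicate 3 had the highest Tnfsf11 of all. The difference of -0.49 (SE 0.44, limma adjusted p = 0.614) was -0.16 without high-fat replicate 2 and -0.98 without high-fat replicate 3.

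**Figure D2:**
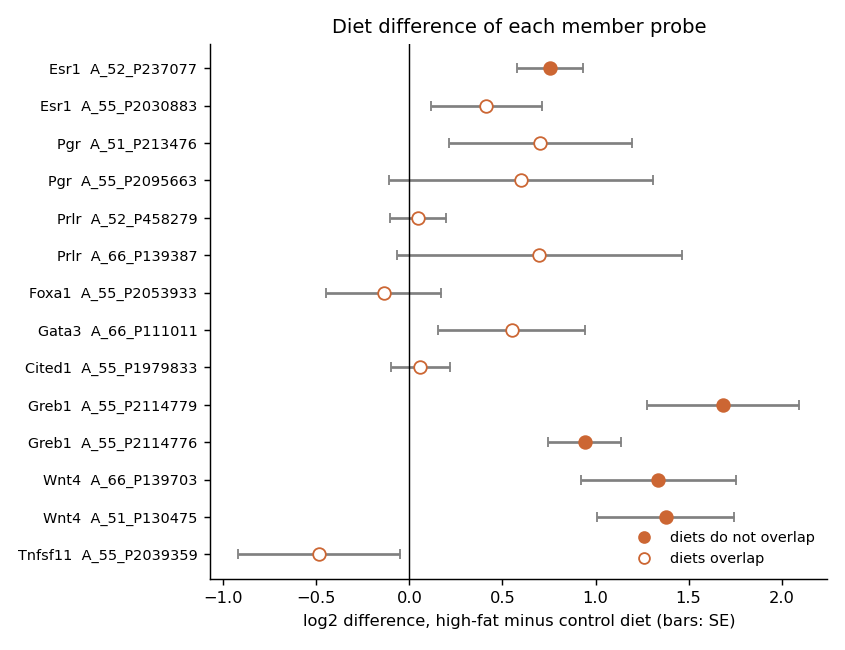
Diet difference (x axis, log2, high-fat minus control) of the 14 member probes well above background on at least 3 arrays, with bars of 1 SE from limma. Filled points mark probes whose diets do not overlap: 1 of Esr1 and both of Greb1 and of Wnt4, all to the right of 0.

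The sequence before the start of the 3 genes without overlap is shown because these are the members that stood apart between the diets and because GREB1 is known as a direct ESR1 target. Windows are the 250 bases before a RefSeq gene start in GRCm38.p6, in the direction of the gene, and capitals mark motif matches. Greb1 and Esr1 have 2 starts each in the table, and the window with a match is printed. For Greb1 it is chr12:16800887-16801136 (minus strand), for Esr1 it is chr10:4709908-4710157 (plus strand) and for Wnt4 chr4:137277385-137277634 (plus strand).
Greb1: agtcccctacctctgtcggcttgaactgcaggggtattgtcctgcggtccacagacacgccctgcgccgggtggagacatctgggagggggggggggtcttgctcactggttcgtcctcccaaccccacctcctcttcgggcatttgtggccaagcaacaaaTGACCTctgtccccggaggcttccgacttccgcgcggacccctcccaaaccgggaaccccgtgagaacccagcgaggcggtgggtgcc
Esr1: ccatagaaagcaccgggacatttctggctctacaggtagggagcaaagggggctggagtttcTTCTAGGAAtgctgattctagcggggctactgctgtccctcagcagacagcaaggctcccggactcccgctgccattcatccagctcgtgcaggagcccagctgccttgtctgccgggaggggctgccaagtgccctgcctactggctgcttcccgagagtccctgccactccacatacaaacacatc
Wnt4: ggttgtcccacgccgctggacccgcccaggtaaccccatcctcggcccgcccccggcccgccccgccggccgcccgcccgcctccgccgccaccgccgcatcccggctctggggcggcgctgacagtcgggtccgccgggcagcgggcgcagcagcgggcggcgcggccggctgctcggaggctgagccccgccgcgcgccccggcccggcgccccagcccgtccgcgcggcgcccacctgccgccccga

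In the Greb1 window the capitals are TGACCT, 1 arm of the oestrogen response element (AGGTCA read on the opposite strand), which starts 88 bases before the gene start. That arm was searched on both strands and occurs in 14% of the 32851 promoter windows of the table, and in 2 of the 15 windows of the members, the other being 1 of the Cited1 windows. The full palindrome GGTCANNNTGACC, present in 0.0639% of all windows, was in none of the 15. In the Esr1 window the capitals are TTCTAGGAA, a match to the STAT motif TTCNNNGAA that 7.02% of windows hold, and a Prlr window carries the same 9 letters. Wnt4 has no match to these motifs, nor to the GATA motif AGATAA (9.99% of windows), the forkhead motif TGTTTAC (3.17%) or AGAACA, 1 arm of the progesterone response element (16.1%). Its window is 85.2% G or C, against 65.2% for that of Greb1 and 59.6% for that of Esr1. These are matches of letters in short windows and show no binding.

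Seen by array, high-fat replicate 1 was the highest array for 6 of the 9 members and the lowest for 0. Control replicate 2 was the lowest for 4. The mean deviation of the 9 members from their own averages was 0.56, 0.27 and 0.01 on high-fat replicates 1 to 3 and 0.10, -0.69 and -0.25 on control replicates 1 to 3. High-fat replicate 3 thus lay below control replicate 1 on this average, and the diets overlapped. The members did not share 1 order: Esr1, Greb1 and Wnt4 ranked the 3 high-fat arrays on top, Gata3 and Prlr put control replicate 1 among the high-fat arrays, and Tnfsf11 put high-fat replicates 1 and 2 last.

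**Figure D3:**
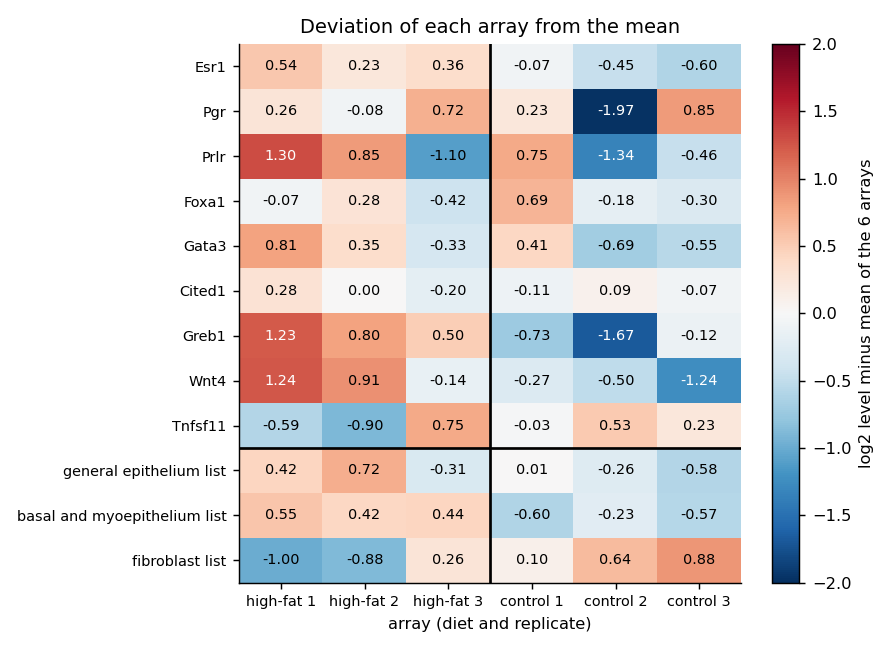
Deviation of each array (columns) from the mean of the 6 arrays, in log2 units, for the 9 members (upper rows) and for the mean of 3 marker lists (lower rows). High-fat arrays are on the left; the general epithelium list is highest on high-fat replicates 1 and 2, and the fibroblast list is lowest on the same arrays.

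Marker lists of the gland's cell types also had different means between the diets. Of the 3 lists given here, only the basal and myoepithelial one was apart in summed level. The general epithelium list had 11 of 11 genes higher, whose mean was 3.46, 3.75 and 2.72 in high-fat replicates 1 to 3 and 3.04, 2.78 and 2.45 on the controls. Its summed level ran from 8.10 to 9.06 under high-fat and 7.86 to 8.40 under control diet, so the diets overlapped. Krt18 differed by 0.51 (SE 0.27), Krt8 by 0.98 (SE 0.42) and Krt7 by 0.75 (SE 0.43). The basal and myoepithelial list was higher in 9 of 9 genes (median 1.21), with a summed level of 7.77 to 8.02 against 6.59 to 7.22. The fibroblast list was lower in 9 of 9 (median -0.91, summed level 7.58 to 8.93 against 8.71 to 9.46), with Dcn at -1.62 (SE 0.33, no overlap) and the collagens Col1a2 at -0.87 (SE 0.47) and Col3a1 at -1.05 (SE 0.46), which overlapped, and fibroblasts of the gland carry oestrogen receptor as well. Acta2, the contractile actin of the basal layer, differed by 0.83 (SE 0.21), Krt5 by 1.27 (SE 0.16) and Krt17 by 1.36 (SE 0.27), all without overlap. Within the 1 slide that held both diets the list medians were 0.12 for general epithelium, 1.13 for the basal list and -0.06 for fibroblasts. No gene of the 3 lists passed limma's adjusted threshold over all genes, and their part in the member differences was not tested beyond the values that follow.

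Set against the mean of the general epithelium list on the same array, all 9 differences became lower, since that list's mean was higher under the high-fat diet. Wnt4 kept its separation: its relative level was -5.15, -5.78 and -5.80 on the high-fat and -6.24, -6.21 and -6.62 on the control arrays, a difference of 0.78 (exact permutation p = 0.1). Greb1 differed by 1.13, but control replicate 3 (-3.44) lay above high-fat replicate 2 (-3.83), and the exact permutation p was 0.2. Esr1 differed by 0.20 with overlapping diets (exact permutation p = 0.7), Prlr by 0.14, Pgr by 0.04, Gata3 by -0.01 and Cited1 by -0.50. Tnfsf11 differed by -1.04 (exact permutation p = 0.4). Foxa1 was then lower on every high-fat array, at -5.76, -5.71 and -5.38 against -4.59, -5.20 and -4.98, a difference of -0.69 (exact permutation p = 0.1). On this scale the median of all genes moved to -0.56, and 0.341% of all genes were higher without overlap and 8.49% lower. Relative to that median, Foxa1 stood at -0.13, Greb1 at 1.69 and Wnt4 at 1.35, because this scaling shifts every gene of an array alike.

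The 6 arrays lay on 3 slides, of which 1 held both diets: high-fat replicates 2 and 3 with control replicate 1. High-fat replicate 1 was alone on its slide, and control replicates 2 and 3 shared another. For these arrays diet and slide cannot be told apart. Differences within the shared slide rest on high-fat replicates 2 and 3 against control replicate 1 alone. Slides were also scanned at different times, so slide and scan are 1 grouping. For Greb1, Wnt4 and Esr1, the lack of overlap over all 6 arrays already puts both high-fat arrays above the control array of that slide. Their mean differences within the slide were 1.38, 0.65 and 0.37. Pgr differed there by 0.10, Cited1 by 0.01 and Tnfsf11 by -0.04. Prlr (-0.88), Foxa1 (-0.76) and Gata3 (-0.41) had lower means on the high-fat arrays of this slide. With slide as a block in limma 0 of the 9 members had an unadjusted p under 0.05, where 5.25% of all genes did, and 0 genes of all passed after adjustment.

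**Figure D4:**
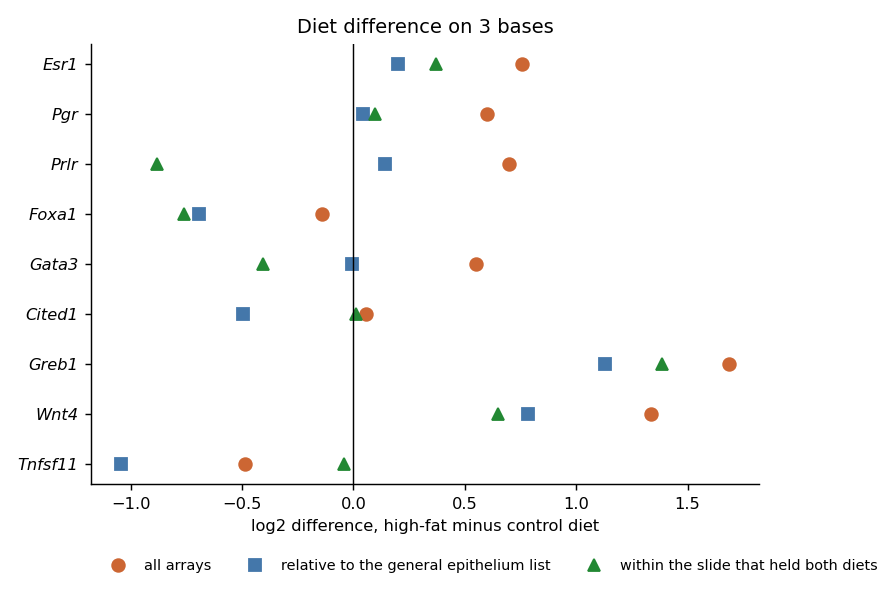
Diet difference of each member (x axis, log2, high-fat minus control) from all arrays (circles), relative to the general epithelium list (squares) and within the slide that held both diets (triangles). Greb1 and Wnt4 stay to the right of 0 by at least 0.65 on all 3. Prlr, Gata3 and Cited1 change side, and Pgr and Tnfsf11 come within 0.1 of 0 on at least 1 of the 3.

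Further genes of the hormone pathway were read from 5 lists, with 73 of 76 genes tested and 0 past limma's adjusted threshold over all genes. The paracrine relay list holds receptors of RANKL, other genes of RANK and WNT signalling and genes downstream. Receptors for WNT4 itself were not in it. It had 10 of 13 genes higher (median 0.32, 0.11 within the shared slide and -0.23 relative to the epithelium list), 4 of them without overlap, beside the 8.47% of all genes. Rspo1, a secreted enhancer of WNT signals that acts together with WNT4 in the gland, differed by 1.92 (SE 0.66, limma adjusted p = 0.339). Its levels were -1.41, -1.85 and -3.87 under high-fat and -3.87, -4.10 and -4.92 under control diet, so that high-fat replicate 3 and control replicate 1 nearly met. Adamts18, a matrix protease of the basal layer acting downstream of hormone signals, differed by 0.83 (SE 0.25). It was dim, at -6.58 to -5.13, where the dimmest detected signal of an array lay at -7.87 to -6.83, though flagged well above background on 6 arrays. Wnt5a, a non-canonical WNT ligand, differed by 0.66 (SE 0.20), and Traf6, an adaptor of RANK, by 0.61 (SE 0.24).

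The oestrogen target list was spread about 0. It had 5 of 14 genes higher and a median of -0.03 (0.01 within the shared slide and -0.59 relative to the epithelium list). In either direction 0 of its genes lay without overlap, where 8.47% of all genes were higher and 8.75% lower without overlap. Areg, the EGF receptor ligand that carries the oestrogen signal in the pubertal gland, differed by -0.30 (SE 0.22), with 0.98, 1.72 and 1.38 under high-fat and 1.68, 1.84 and 1.46 under control diet. Myb, whose transcription oestrogen releases in human breast cancer cells, differed by 0.80 (SE 0.31), the scaffold protein Slc9a3r1 by 0.39 (SE 0.22) and the secretory factor Xbp1 by -0.25 (SE 0.22).

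Luminal transcription partners other than the members had 9 of 12 genes higher (median 0.38, and -0.01 within the shared slide). Relative to the epithelium list their median was -0.18, where that of all genes was -0.56. Tfap2c, an AP-2 factor that binds beside ESR1, differed by 0.78 (SE 0.24) without overlap. Runx1 differed by 0.51 (SE 0.21), also without overlap but with high-fat replicate 3 and control replicate 2 both at about 1.7. Grhl2 differed by 0.47 (SE 0.20) and Zfpm1, a GATA cofactor, by 0.38 (SE 0.19), both with overlap. In this list 2 genes were higher and 1 lower without overlap, where 8.47% of all genes were higher and 8.75% lower. Receptors and coregulators were split, with 11 of 24 genes higher and a median of -0.02 (0.10 within the shared slide and -0.58 relative to the epithelium list). Nrip1, a corepressor that oestrogen itself induces, was higher without overlap (0.84, SE 0.27), and the vitamin D receptor Vdr differed by 0.89 (SE 0.36). Nr3c1, the glucocorticoid receptor, was lower without overlap (as were 8.75% of all genes), at 1.48 ± 0.17 in the high-fat mice against 2.24 ± 0.19 in the controls (SD, n = 3 each, difference -0.76, SE 0.16, limma adjusted p = 0.216), as was the thyroid hormone receptor Thrb (-0.67, SE 0.21).

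The prolactin receptor signalling list had 4 of 10 genes higher and a median of -0.32 (-0.21 within the shared slide and -0.88 relative to the epithelium list). Stat5a, the transcription factor that PRLR activates, differed by -0.72 (SE 0.21, limma adjusted p = 0.296) without overlap. Socs1, a feedback inhibitor of JAK2, read 0.20, 0.19 and 0.20 under high-fat and 0.73, 0.87 and 0.68 under control diet, a difference of -0.56 (SE 0.11, limma adjusted p = 0.214). Its 3 high-fat arrays were nearly equal and all below the controls. Socs3 differed by -0.58 (SE 0.25), and Ptpn1, a phosphatase of the pathway, by 0.47 (SE 0.14) without overlap.

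**Figure D5:**
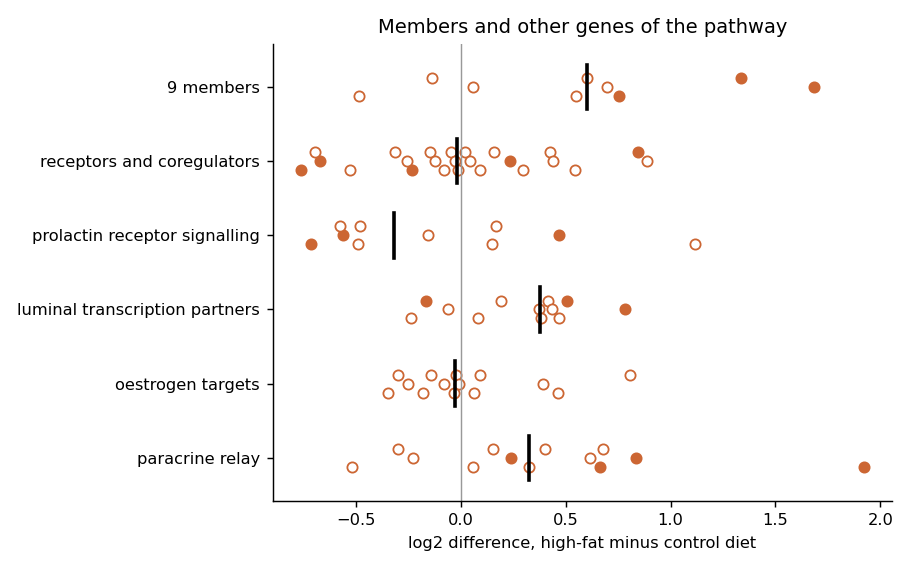
Diet difference (x axis, log2, high-fat minus control) of the 9 members and of the genes tested in 5 pathway lists, 1 point per gene. Filled points mark genes whose diets do not overlap and black bars are medians, which run from -0.32 for prolactin receptor signalling to 0.60 for the members.

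Of 4 markers of the receptor-bearing luminal cells that are no members, 3 were tested and their diets overlapped. Prom1, a surface protein of these cells, differed by 0.39 (SE 0.38), Ly6a (Sca-1) by -0.10 (SE 0.25) and the ion pump regulator Fxyd2 by -0.32 (SE 0.27), and Cxcl15 was not tested because it was flagged well above background on 0 arrays.

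Lists of other cell types are given for the makeup of the samples. Of 5 alveolar and milk genes tested 4 were higher (median 0.70, 0.04 within the shared slide), led in level by Cd14 (0.31, SE 0.71), Aldh1a3 (1.16, SE 0.74) and Ltf (1.21, SE 1.03), and the diets of all 5 overlapped. Of 8 adipocyte genes 5 were higher (median 0.14), with Pnpla2 at -0.05 (SE 0.21), Fabp4 at 0.12 (SE 0.56) and Lipe, lower without overlap, at -0.29 (SE 0.13). The dim Adipoq was higher without overlap, at 1.04 (SE 0.22, limma adjusted p = 0.222). In this list 1 gene was thus higher and 1 lower without overlap, where 8.47% of all genes were higher and 8.75% lower. Of 7 leukocyte genes 4 were higher (median 0.25), with Itgam at -0.43 (SE 0.21), Cd3e at -0.09 (SE 0.19) and Csf1r at -0.12 (SE 0.25). Only Ptprc of this list lay without overlap, higher by 0.39 (SE 0.16, limma adjusted p = 0.374), as did 8.47% of all genes. Of 6 endothelial genes 3 were higher (median 0.03, 1.21 within the shared slide), with Kdr at -0.07 (SE 0.18), Cdh5 at 0.13 (SE 0.58) and Cldn5 at -0.12 (SE 0.75). Only Emcn of this list lay without overlap, higher by 1.40 (SE 0.59, limma adjusted p = 0.376), as did 8.47% of all genes. The skeletal muscle list was lower in 5 of 6 genes (median -1.07, -1.41 within the shared slide), 4 of them without overlap, beside 8.75% of all genes. Its brightest genes were Acta1 (0.01, SE 0.24), Tnnt3 (-2.20, SE 0.23) and Actn3 (-1.02, SE 0.20). The keratinocyte list was lower in 3 of 3 (median -0.56, -1.10 within the shared slide), with Krt10 at -0.06 (SE 0.14), Lor at -0.63 (SE 0.43) and Ivl at -0.56 (SE 0.74). No gene of these lists passed limma's adjusted threshold, and their part in the member values was not tested.

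The genes whose profiles over the 6 arrays were most like those of the receptors were taken by the root mean square difference of mean-centred levels among 16388 named genes. For Esr1 they were Gm14124, the proteasome genes Psme4 and Psma6, and the ubiquitin ligase Cbl, at 0.085 to 0.094, where the median gene lay at 0.48. For Prlr they were Slc5a8, Cp, A630023A22Rik and Tmprss4, at 0.31 to 0.34, where the median gene lay at 1.05. For Pgr they were Kcna1, Ggt5, Bhlhe22 and Spon2, at 0.35 to 0.52, where the median gene lay at 0.98. None of the other 8 members was among these for any receptor. Over so few arrays such likeness describes these samples alone.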

How the data were processed

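Mammary RNA of 6 mice was read on 6 single-colour Agilent arrays. The deposited scanner files hold intensity values on a linear scale, made by the authors with Agilent Feature Extraction 11.0.1.1 per the file headers (array annotation on mm9). The flags for saturation, outliers and signal above background are also as deposited by the authors. Control spots and outlier spots were left out, spots of a probe averaged, and 111 probes left out that lacked a usable spot on some array. Log2 processed signal was taken relative to the 75th percentile of each array. A probe entered the tests when 3 or more of the 6 arrays flagged it well above background (28687 did). Each gene was then represented by its brightest probe on average, which left 23458 genes or unnamed transcripts. Names came from matching the accession of a probe to RefSeq (27427 of 39429 matched 1 symbol).

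The high-fat and control arrays were tested in R 4.3.3 using the linear models of limma 3.58.1 with moderated variance and no covariate. P-values are two-sided and were adjusted by Benjamini-Hochberg across the whole table, with a threshold of 0.05. Exact permutation tests ran over the 20 splits of the arrays. Each probe's difference comes from the same fit over all probes. The deposited table of values was used as another setting. Its values, intensity on a linear scale, stood in 1 ratio to the scanner signal over the 75th percentile (within 1% for 99.9% of probes), so its scale is inferred by comparison and not stated by the authors, with medians per column of 0.134, 0.134 and 0.137 (high-fat) and 0.134, 0.140 and 0.134 (control). The normexp setting used median spot and background signals.

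The members and lists were chosen with earlier results of these data known. Named genes were the 9 members, the 4 genes of each pathway list with the smallest p, the 3 brightest genes of each marker list and the 4 genes most like each receptor. Retn, Ptprc, Emcn, markers named as dim or not tested, and the genes singled out as such, were added after their values were seen. Promoter sequences are from RefSeq (GRCm38.p6), matched by symbol for 9 of 9 members. The only coordinates given are those of the printed promoter windows, in that build, which is not the array's.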

Additional observations from a re-analysis of the deposited data

How the results depend on the processing

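Greb1 kept its direction in 20 of 20 alternatives, and so did Esr1 and Wnt4, with 0 of 9 members past the adjusted threshold in every alternative except array weights. For these 3 genes the lack of overlap fixed the direction in advance with 1 array left out, array weights, slide block or replicate block. Other filters, separate probes and another variance model in limma left their differences unchanged, so the count of alternatives overstates the checks. With array weights, which ran from 0.339 to 4.70 (the highest on control replicate 3), 3 members passed (Esr1, Wnt4 and Gata3) and 5409 genes of all, and the cause was not tested. The count of 4 genes past the threshold over all genes was 0 with quantile scaling, with a normexp background, without a filter, with slide as a block and with the epithelial covariate (1232 to 3210 at an unadjusted p under 0.05 in limma). It was 2 with median scaling, 7 with the filter at all 6 arrays and 844 with epithelial scaling (30 higher, 814 lower), and 0 to 37 when 1 array was left out (37 without high-fat replicate 3). With epithelial scaling limma gave all 9 members the same SE (0.49), so their p-values there followed the size of the difference alone. The count of 3 members higher without overlap became 1 with epithelial scaling, where the median of all genes was -0.56, 2 with the mean of the probes of a gene (Esr1 then overlapped), and 4 without high-fat replicate 3 or without control replicate 1. With normexp that median was 0.21.

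Replicate numbers were not treated as pairs, because the labels name no pairing. Same-numbered arrays correlated at 0.33, -0.14 and 0.25 in their deviations, and different-numbered ones at -0.38 to 0.23. These few values cannot settle whether the arrays are paired. With a replicate block 0 genes passed in limma (4044 at an unadjusted p under 0.05, and 3129 without the block). The lowest limma adjusted p of a member was then 0.10, for Wnt4.

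Members with small or uneven differences turned direction in places. Cited1 was -0.50 with epithelial scaling and -0.055 with the epithelial covariate, and -0.069 to 0.17 with 1 array left out. Foxa1 was 0.042 with normexp and 0.28 with array weights, and -0.32 to 0.17 with 1 array left out. Gata3 was -0.0056 with epithelial scaling, -0.41 with slide as a block and -0.0055 with the epithelial covariate. Pgr was -0.20 with array weights, and -0.24 to 1.17 with 1 array left out. Prlr was -0.88 with slide as a block and -0.46 with the epithelial covariate. Tnfsf11 was 0.14 with normexp and 0.26 with the epithelial covariate. Gata3 is not in the deposited table and Pgr did not pass the filter at all 6 arrays. Signal close to background limits Pgr, the dimmer Esr1 probes and the dimmer Wnt4 probe.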
